A study of Mus musculus with 8 samples.

Results

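The genes described here are the axon guidance ligands and receptors: ephrins and Eph receptors, semaphorins with their plexin and neuropilin receptors, netrins with Dcc and the Unc5 receptors, and Slits with their Robo receptors. They were taken by symbol, as every row named Epha or Ephb, Efna or Efnb, Sema, Plxn, Nrp1 or Nrp2, Ntn, Unc5a to Unc5d, Slit1 to Slit3, Robo1 to Robo4 or Dcc. This gave 69 of the 55414 genes in the count table, and all 69 passed the filter on low counts, among 24356 genes tested. They comprise 8 ephrins, 14 Eph receptors, 7 secreted class 3 semaphorins, 13 membrane-bound semaphorins, 2 neuropilins, 9 plexins, 4 netrins, 5 netrin receptors, 3 Slits and 4 Robos.

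Guidance cues steer growing axons and migrating cells by attraction or repulsion, read out at the cell surface and passed to the actin cytoskeleton. Ephrins and membrane-bound semaphorins act between touching cells, and signal into the cell that carries them as well as into the receptor-bearing cell, whereas class 3 semaphorins, netrins and Slits are secreted. In the adult brain the same families act at synapses and in blood vessels, and many are also expressed by tumors, where they have been studied in invasion, vessel growth and immune cell entry.

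RNA was sequenced from a mouse model of supratentorial ependymoma, a brain tumor of the cerebral hemispheres, driven by the ZFTA-RELA fusion, which joins a zinc finger protein to a subunit of NF-kB. The 4 groups of 2 libraries were MRX-2843 tumor, vehicle tumor, MRX-2843 naive brain and vehicle naive brain. MRX-2843, which blocks the tyrosine kinases MERTK and FLT3, was given by mouth at 50 mg/kg once a day for 5 days, the vehicle groups received vehicle, and brains were taken 1 h after the last dose. The labels give ZFTA-RELA as the genotype of all 8 libraries, naive brain included, and enter the drug name as the cell line of all 8. They give no age, sex or strain and leave unstated whether the naive tissue is from tumor-bearing mice. They call the libraries of a group duplicates without saying whether these are separate animals, so the p-values below may measure technical spread only. Number 909 stands in the column names of all 4 MRX-2843 libraries, and 914 or 915 in those of the vehicle libraries, so the drug and this number cannot be told apart. Number 914 belongs to both vehicle tumor libraries and to vehicle naive brain 1, and 915 to vehicle naive brain 2. Tumor and naive brain libraries thus share numbers within a treatment, and the fit did not pair libraries by number.

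Library totals ran from 51150569 to 112938462 counts. Levels are in CPM, read counts relative to the library total after TMM scaling, and 3 counts correspond to 0.0281 to 0.0615 CPM. The libraries labelled MRX-2843 tumor stood close to brain: over the 69 genes on the log2(CPM + 1) scale, single libraries of MRX-2843 tumor and vehicle naive brain correlated at Pearson's r of 0.951 to 0.963, and those of MRX-2843 tumor and vehicle tumor at 0.250 to 0.291 (a description across genes, which are not independent). Those of MRX-2843 naive brain correlated less closely with both, at 0.914 to 0.923 with MRX-2843 tumor and 0.897 to 0.911 with vehicle naive brain. Xist, transcribed from the inactive X chromosome, ran from 526 to 795 CPM in the libraries of the drug arm and from 0.408 to 2.87 CPM in those of the vehicle arm, and the Y-linked Ddx3y had 0 counts in each library of the drug arm and 2168 to 6717 in those of the vehicle arm. Sex and drug therefore cannot be told apart, and Efnb1, Plxna3 and Plxnb3 lie on chromosome X. Mitochondrially encoded genes took 16.4 to 17.3% of counts in MRX-2843 tumor, 3.26 to 3.37% in vehicle tumor, 17.8 to 18.5% in MRX-2843 naive brain and 14.7 to 15.1% in vehicle naive brain. The 6 ependymal markers summed to 18.4 to 20.6 CPM in MRX-2843 tumor, 29.8 to 30.2 CPM in vehicle tumor with Pifo at 0, 9.63 to 12.2 CPM in MRX-2843 naive brain and 4.87 to 5.76 CPM in vehicle naive brain with Tmem212 at 0. Whether the libraries labelled MRX-2843 tumor hold tumor tissue was not tested, and each result below that uses them is a result of these libraries as labelled. Such results cannot be given without them. The comparisons that do not use them are given both ways.

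The vehicle tumor against vehicle naive brain comparison asks how the guidance genes of this tumor differ from those of brain. Nearly the whole set differed: 34 of the 69 genes were higher in vehicle tumor, 29 were lower and 6 were not called (edgeR quasi-likelihood test, Benjamini-Hochberg adjusted p under 0.05 over all genes tested). The 63 called are 91.3% of the set, where 60.1% of all genes tested were called, 29.3% higher and 30.8% lower. With genes kept only at a CPM of at least 1 in at least 2 libraries, 63 of 68 (92.6%) were called against 76.7% of 17778 genes. The sizes were large: 48 genes were called with a change of at least 1 on the log2 scale (40.2% of all genes), and the median absolute log2 fold change was 1.95, against 1.17 over all genes. Directions were mixed, with a median log2 fold change of 0.27 for the set and -0.03 for all genes, and every family except the class 3 semaphorins, neuropilins and Slits held genes called both ways. Single libraries of the groups did not overlap for 66 of the 69 genes, where 80.5% of all genes did not overlap. Without both MRX-2843 tumor libraries in the fit, the same 63 genes were called in the same directions.

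**Figure D1:**
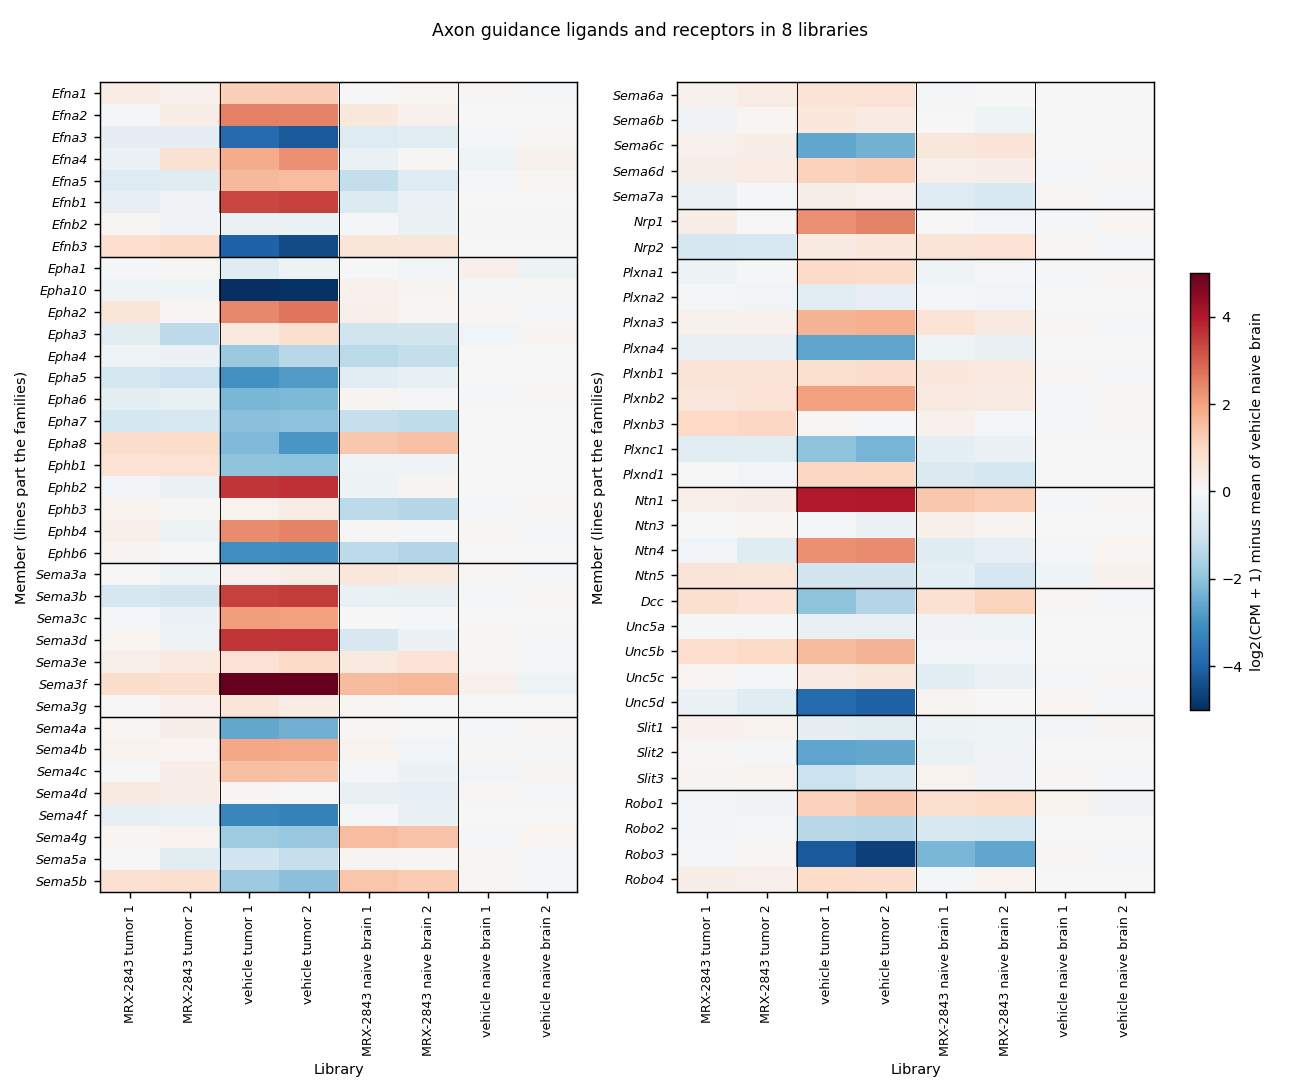
Level of each of the 69 genes in each of the 8 libraries, as log2(CPM + 1) minus the mean of the vehicle naive brain libraries (colour, limited to -5 to 5; rows are genes, grouped by family, columns are libraries). The vehicle tumor columns hold nearly all of the strong colours, with Sema3f the highest and Epha10 the lowest row, while the MRX-2843 tumor columns resemble the brain columns.

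Several cell type marker lists moved with this comparison. All 10 neuron markers were lower in vehicle tumor, with a summed level of 559 to 565 CPM in vehicle tumor and 8709 to 8901 CPM in vehicle naive brain, and all 7 oligodendrocyte markers were lower, at 486 to 500.4 CPM and 7408 to 7472 CPM. Markers of endothelial cells (7 of 7 higher, 616 to 620.3 CPM in vehicle tumor and 153 to 160.3 CPM in vehicle naive brain), mural cells and fibroblasts (6 of 7 higher, 8610 to 8711 CPM and 167 CPM), microglia (7 of 7 higher, 1836 to 1879 CPM and 237 to 239.6 CPM) and dividing cells (6 of 6 higher, 340 to 341 CPM and 40.0 to 41.0 CPM) were higher. Macrophage and monocyte markers (6 of 6 higher, 282 to 286 CPM and 18.8 to 21 CPM), T and NK cell markers (5 of 5 higher, 16.9 to 17.1 CPM and 0.588 to 0.804 CPM) and oligodendrocyte precursor markers (5 of 6 higher, 1008 to 1028 CPM and 244 to 251 CPM) also rose, all 6 striatal neuron markers fell (15.9 to 17.7 CPM and 281 to 283 CPM), and 4 of 5 erythrocyte markers fell. Astrocyte (2 of 7 higher, 4 lower), neuroblast (2 of 6 higher, 4 lower), ependymal (2 of 6 higher, 2 lower) and choroid plexus markers (1 of 5 higher, 2 lower) were mixed in their calls. The choroid plexus markers summed to 167.6 to 167.9 CPM in vehicle tumor and 4.91 to 5.76 CPM in vehicle naive brain. The part of all these cell types in the levels of the guidance genes was not tested. In bulk samples, fewer cells of a type and less RNA per cell cannot be told apart.

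The ephrins of vehicle tumor and vehicle naive brain differed in composition. Of the 8, Efna1, Efna2, Efna4, Efna5 and Efnb1 were higher in vehicle tumor and Efna3, Efnb2 and Efnb3 were lower. Efnb1 (chrX:99136130-99148991, plus strand, GRCm38), a transmembrane ephrin that binds EphB receptors, was at 12.4 and 15 CPM in MRX-2843 tumor, 178 and 189 CPM in vehicle tumor, 10.1 and 13.7 CPM in MRX-2843 naive brain, and 17.4 and 16.4 CPM in vehicle naive brain. Only the vehicle tumor libraries were above 20 CPM, and the log2 fold change of vehicle tumor over vehicle naive brain was 3.44 ± 0.12 (SE; adjusted p = 2.44e-12). Efnb3 (chr11:69554092-69560205, minus strand), a transmembrane ephrin that blocks midline crossing of corticospinal axons, had the opposite pattern, with 167 and 178 CPM in MRX-2843 tumor, 4.65 and 3.20 CPM in vehicle tumor, 143 and 137 CPM in MRX-2843 naive brain, and 92.3 and 92.5 CPM in vehicle naive brain. The vehicle tumor libraries were far below the other 6, and the fold change was -4.56 ± 0.12 (adjusted p = 5.43e-14). Efna3, one of the ephrins tethered by a lipid anchor, was likewise low in vehicle tumor, at 2.15 and 1.49 CPM, against 42.4 and 46.5 CPM in vehicle naive brain (-4.61 ± 0.15, adjusted p = 9.17e-13). It stood at 31.6 and 32.2 CPM in MRX-2843 tumor and at 27.9 and 30.6 CPM in MRX-2843 naive brain. An exon of Efna3 overlaps one of another gene on the other strand, and the strand setting of the counting is not given in the sources used here.

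Per length of merged exons, the ephrins together reached 84.1 CPM per kb in MRX-2843 tumor, 91.5 in vehicle tumor, 71.6 in MRX-2843 naive brain and 65.0 in vehicle naive brain. Efnb1 made up 58.0% of that sum in vehicle tumor and 7.53% in vehicle naive brain, while Efnb3 made up 1.35% in vehicle tumor and 44.7% in vehicle naive brain. Efna2 rose by 2.68 ± 0.17 to a mean of 36.8 CPM in vehicle tumor, against 5.73 CPM in vehicle naive brain. The low-level Efna4 gained as well (3.98 ± 1.14, adjusted p = 0.0076), with 305 and 450 counts in vehicle tumor and 7 and 30 counts in vehicle naive brain, and its call was lost in DESeq2's Wald test.

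Among the 14 Eph receptors, the receptor tyrosine kinases bound by ephrins, 4 were higher in vehicle tumor (Epha2, Epha3, Ephb2 and Ephb4), 8 were lower (Epha4, Epha5, Epha6, Epha7, Epha8, Epha10, Ephb1 and Ephb6), and Epha1 and Ephb3 were not called. Ephb2 (chr4:136647539-136835988, minus strand), a receptor for B-class ephrins, was at 8.65 and 7.65 CPM in MRX-2843 tumor, 127 and 134 CPM in vehicle tumor, 7.87 and 10.7 CPM in MRX-2843 naive brain, and 9.60 and 9.79 CPM in vehicle naive brain. No library outside vehicle tumor passed 11 CPM, and the fold change was 3.75 ± 0.13 (adjusted p = 1.05e-12). Epha10 (chr4:124880899-124917800, plus strand) and Ephb6 lack kinase activity and had the highest levels per length of the 14 receptors in vehicle naive brain. Epha10 had 85.1 and 86.1 CPM in MRX-2843 tumor, 1.80 and 2.27 CPM in vehicle tumor, 118 and 109.6 CPM in MRX-2843 naive brain, and 96.9 and 103 CPM in vehicle naive brain, a fold change of -5.62 ± 0.10 (adjusted p = 1.17e-15). Ephb6 had 125 and 118 CPM in MRX-2843 tumor, 12.8 and 12.5 CPM in vehicle tumor, 45.5 and 41.4 CPM in MRX-2843 naive brain, and 113 and 117 CPM in vehicle naive brain, a fold change of -3.18 ± 0.08 (adjusted p = 2.39e-14). Its MRX-2843 naive brain libraries lay between vehicle tumor and vehicle naive brain. The Eph receptors summed to 38.0 CPM per kb in vehicle tumor and 83.4 in vehicle naive brain. Ephb2 made up 27.2% and Ephb4, known for its role in veins, 21.5% of the sum in vehicle tumor, against 0.92% and 1.62% in vehicle naive brain, where Ephb6 made up 36.4%.

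Ephb2 and Epha8 lie on the same strand of chromosome 4 with a gap of 93430 bases between them and moved in opposite directions, Epha8 by -3.41 ± 0.28 to 0.949 CPM in vehicle tumor, against 10.1 CPM in vehicle naive brain. Their promoter windows are shown to set a receptor that rose beside a receptor that fell. The choice was made among 7 windows free of annotated exons, of called Eph receptors with a mean log2 CPM of at least 2. Ephb2 had the largest rise and Epha8 the largest fall among these, which do not include Epha10. The windows shown are the 250 bases before the transcription start on the minus strand in RefSeq on GRCm38.p6. They are written 5′ to 3′ with every CpG dinucleotide in capitals, as a description of 1 chosen pair. The Ephb2 window (chr4:136836013-136836262) holds 20 CpG and is 68.4% G and C, and the Epha8 window (chr4:136956817-136957066) holds 46 CpG and is 84% G and C.
Ephb2: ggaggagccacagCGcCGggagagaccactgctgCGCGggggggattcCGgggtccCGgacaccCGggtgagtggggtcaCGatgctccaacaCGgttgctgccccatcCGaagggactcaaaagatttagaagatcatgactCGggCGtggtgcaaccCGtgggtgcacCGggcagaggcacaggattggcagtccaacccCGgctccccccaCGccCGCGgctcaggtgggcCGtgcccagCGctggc
Epha8: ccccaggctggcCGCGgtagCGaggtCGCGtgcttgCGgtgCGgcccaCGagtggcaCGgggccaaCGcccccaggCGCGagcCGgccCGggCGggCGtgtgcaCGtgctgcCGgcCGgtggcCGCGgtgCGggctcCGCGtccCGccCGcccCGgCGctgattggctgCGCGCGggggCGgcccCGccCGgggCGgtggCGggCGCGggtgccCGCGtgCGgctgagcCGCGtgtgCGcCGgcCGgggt
Windows were present for 59 of the 69 genes, and the median number of CpG in 250 bases was 15 over their 75 windows, against 6 over 32851 windows of all genes. Windows of genes higher in vehicle tumor had a median of 16 and those of genes lower in it a median of 17.

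The class 3 semaphorins, which signal through neuropilins and A-type plexins, shifted one way: 6 of 7 were higher in vehicle tumor, none was lower, and Sema3a was not called (0.30 ± 0.15, adjusted p = 0.092). Sema3f (chr9:107681500-107710475, minus strand), a ligand of neuropilin-2, had 17.5 and 17 CPM in MRX-2843 tumor, 564 and 589 CPM in vehicle tumor, 29.3 and 31.2 CPM in MRX-2843 naive brain, and 10.7 and 7.70 CPM in vehicle naive brain. Both vehicle tumor libraries lay far above the other 6, and the fold change was 5.96 ± 0.12 (adjusted p = 2.36e-15). Sema3b and Sema3d followed, at 58.8 and 62.3 CPM and at 67.5 and 68.3 CPM in vehicle tumor, against 4.42 and 4.80 CPM and 5.20 and 4.32 CPM in vehicle naive brain (3.72 ± 0.13 and 3.83 ± 0.19). Sema3c rose by 2.15 ± 0.10, and Sema3e, the ligand of plexin D1, by 0.92 ± 0.16. The family summed to 10.1 CPM per kb in MRX-2843 tumor, 147 in vehicle tumor, 13.4 in MRX-2843 naive brain and 9.0 in vehicle naive brain. Sema3f alone made up 75.5% of the sum in vehicle tumor and 19.7% in vehicle naive brain.

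The membrane-bound semaphorins split evenly, with Sema4b, Sema4c, Sema6a, Sema6b, Sema6d and Sema7a higher in vehicle tumor, Sema4a, Sema4f, Sema4g, Sema5a, Sema5b and Sema6c lower, and Sema4d not called. Sema4b had 25.8 and 24.0 CPM in MRX-2843 tumor, 88.0 and 85.9 CPM in vehicle tumor, 25.5 and 20.4 CPM in MRX-2843 naive brain, and 23.2 and 21.9 CPM in vehicle naive brain (1.95 ± 0.10, adjusted p = 2.88e-10). Sema4f had 38.5 and 41.2 CPM in MRX-2843 tumor, 4.53 and 4.03 CPM in vehicle tumor, 49.5 and 39.7 CPM in MRX-2843 naive brain, and 52.5 and 51.1 CPM in vehicle naive brain (-3.60 ± 0.12, adjusted p = 1.4e-12). In both, the vehicle tumor libraries lay outside the range of the other 6. Sema6b, a ligand of A-type plexins, differed little, with 108 and 130.2 CPM in MRX-2843 tumor, 178 and 163 CPM in vehicle tumor, 121 and 106 CPM in MRX-2843 naive brain, and 119.8 and 126 CPM in vehicle naive brain (0.47 ± 0.09, adjusted p = 0.000248). Sema4d, the ligand of plexin B1, had 70.7 and 67.8 CPM in vehicle tumor and 70.9 and 66.6 CPM in vehicle naive brain, which overlapped (0.01 ± 0.07, adjusted p = 0.916). The sum of the class was 136 CPM per kb in vehicle tumor and 125 in vehicle naive brain.

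Since the driver of the model carries an NF-kB subunit, the promoter windows of 300 bases (250 before to 50 after the start) were searched on both strands for an NF-kB motif (GGG, any 2 bases, then TTTCC) and, beside it, the AP-1 letters TGANTCA. The NF-kB motif was in the window of 1 of 59 genes (1.69%), against 1.89% of 27025 genes with a window, and the AP-1 letters in 3 of 59 (5.08%; Sema4c, Sema4d and Sema6b), against 8.97%. A match is a description and not a bound site. Only these letters were searched, and other forms of an NF-kB site were not. With 1 match, the share cannot tell whether these genes hold more or fewer NF-kB sites than others. Shown are the 250 bases before the start for the NF-kB match, in Sema6c (chr3:95160170-95160419, plus strand), which was lower in vehicle tumor (-2.76 ± 0.13), and for the AP-1 match in a window free of annotated exons, in Sema6b (chr17:56133853-56134102, minus strand). The Sema6b window lies within the annotated gene (chr17:56123085-56140343) and precedes an internal RefSeq start. Sequences are from RefSeq on GRCm38.p6, 5′ to 3′, with the matched letters in capitals, which begin 174 bases before the start in Sema6c and 48 bases before it in Sema6b.
Sema6c: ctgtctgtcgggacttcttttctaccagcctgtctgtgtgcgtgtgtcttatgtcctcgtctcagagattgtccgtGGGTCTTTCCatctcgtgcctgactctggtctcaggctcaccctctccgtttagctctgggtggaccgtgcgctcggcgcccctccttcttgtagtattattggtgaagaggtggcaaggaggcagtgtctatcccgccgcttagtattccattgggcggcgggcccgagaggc
Sema6b: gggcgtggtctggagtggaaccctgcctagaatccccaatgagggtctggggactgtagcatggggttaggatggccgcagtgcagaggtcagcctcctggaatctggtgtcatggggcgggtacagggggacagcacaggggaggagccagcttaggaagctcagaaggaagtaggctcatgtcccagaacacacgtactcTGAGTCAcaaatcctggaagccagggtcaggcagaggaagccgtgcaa

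Of the receptors of the semaphorins, both neuropilins and 5 of 9 plexins were higher in vehicle tumor. Nrp1, the co-receptor of Sema3a and of the vessel growth factor VEGF, had 12.6 and 10.05 CPM in MRX-2843 tumor, 53.3 and 60.6 CPM in vehicle tumor, 10.1 and 9.08 CPM in MRX-2843 naive brain, and 9.30 and 11.1 CPM in vehicle naive brain (2.48 ± 0.14, adjusted p = 5.6e-10). Nrp2, the co-receptor of Sema3f, had 40.1 and 42.9 CPM in vehicle tumor and 30.4 and 28.0 CPM in vehicle naive brain, a smaller rise (0.51 ± 0.09, adjusted p = 0.000156). Plxnb2 (chr15:89155549-89180788, minus strand), a receptor of class 4 semaphorins, had 82.4 and 90.7 CPM in MRX-2843 tumor, 236 and 237 CPM in vehicle tumor, 76.9 and 73.8 CPM in MRX-2843 naive brain, and 54.0 and 58.1 CPM in vehicle naive brain (2.08 ± 0.07, adjusted p = 7.67e-13). Plxna4, which relays Sema3a with Nrp1, ran the other way, with 42.5 and 41.6 CPM in MRX-2843 tumor, 8.05 and 7.96 CPM in vehicle tumor, 46.8 and 42.2 CPM in MRX-2843 naive brain, and 53.3 and 55.9 CPM in vehicle naive brain (-2.77 ± 0.09, adjusted p = 1.12e-12). For both plexins the vehicle tumor libraries stood apart from all 6 others. Plxna1, Plxna3 (1.77 ± 0.08), Plxnb1 and Plxnd1 also rose, Plxna2 and Plxnc1, the receptor of Sema7a, also fell, and Plxnb3 was not called (-0.01 ± 0.10). Plxnb1, the receptor of Sema4d, had 125 and 125 CPM in MRX-2843 tumor, 139 and 146 CPM in vehicle tumor, 115 and 111 CPM in MRX-2843 naive brain, and 82.1 and 75.6 CPM in vehicle naive brain (0.85 ± 0.06, adjusted p = 1.24e-08). The plexins summed to 113.5 CPM per kb in vehicle tumor and 59.5 in vehicle naive brain, with Plxnb2 at 27.0% and 12.2% of the sum.

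**Figure D2:**
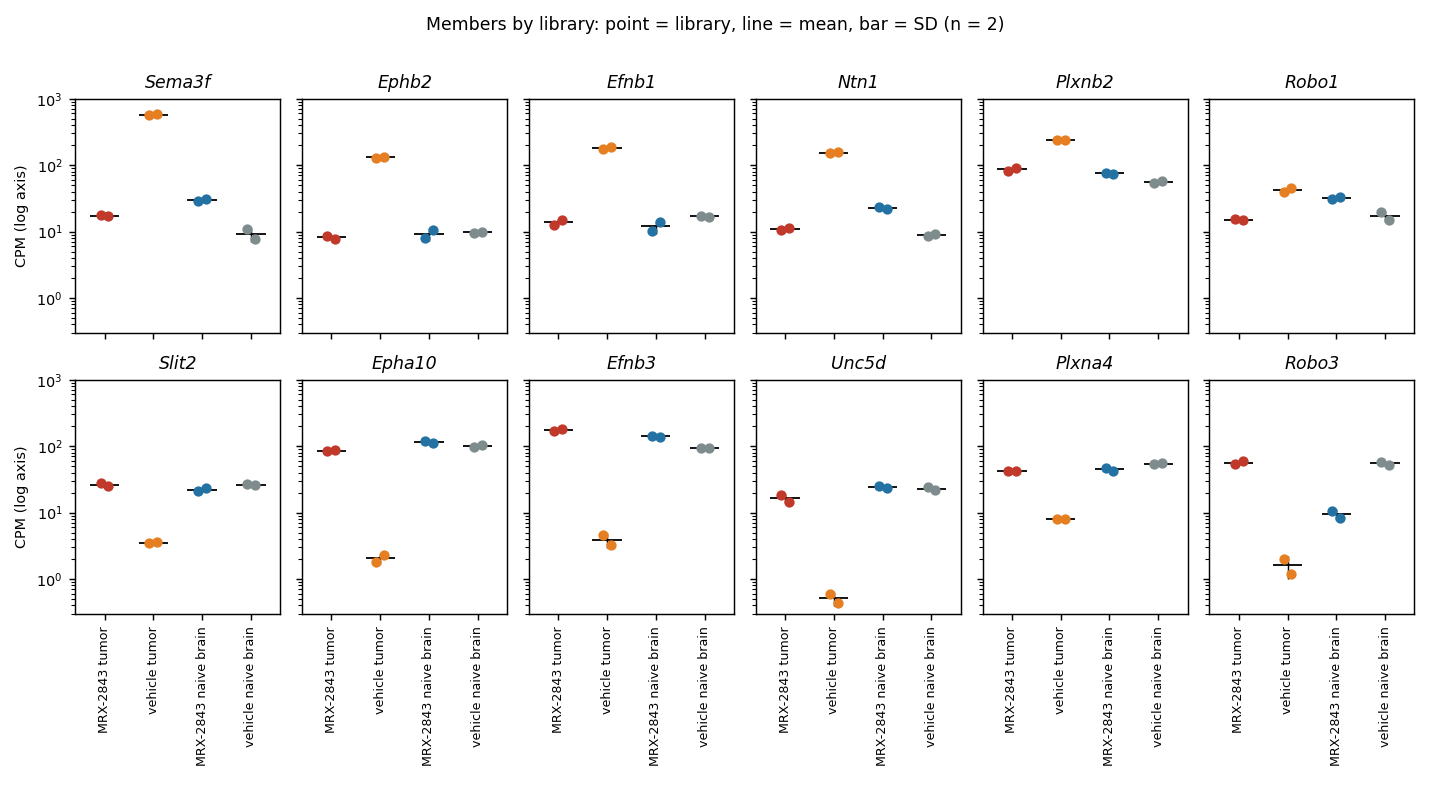
CPM on a log axis of 12 genes in each library (points), with the mean (line) and SD (bar) of the 2 libraries of each group. In the upper row, from Sema3f to Robo1, vehicle tumor is the highest group, and in the lower row, from Slit2 to Robo3, it is the lowest; Robo3 is also low in MRX-2843 naive brain, at 10.6 and 8.31 CPM.

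The netrin system moved in its ligands and in its receptors. Ntn1 (chr11:68209364-68400823, minus strand), netrin-1, had 10.6 and 11.2 CPM in MRX-2843 tumor, 152 and 156 CPM in vehicle tumor, 23.8 and 21.8 CPM in MRX-2843 naive brain, and 8.5 and 9.09 CPM in vehicle naive brain. The vehicle tumor libraries were the highest, the MRX-2843 naive brain libraries came next, and the fold change of vehicle tumor over vehicle naive brain was 4.13 ± 0.09 (adjusted p = 6.51e-15). Ntn4, a netrin of basement membranes, rose by 2.49 ± 0.18 and Ntn3 was not called (-0.23 ± 0.16). Ntn5 had no counts in vehicle tumor and 126 counts over the vehicle naive brain libraries, at least 53.6-fold lower with the group set at 3 counts. Its exons overlap those of Sec1 on the other strand. Of the receptors, Unc5b and Unc5c were higher in vehicle tumor, and Dcc, Unc5a and Unc5d were lower. Unc5d (chr8:28646717-29219636, minus strand) had 18.1 and 14.5 CPM in MRX-2843 tumor, 0.601 and 0.431 CPM in vehicle tumor, 25.3 and 23.1 CPM in MRX-2843 naive brain, and 24.1 and 21.5 CPM in vehicle naive brain (-5.46 ± 0.20, adjusted p = 2.99e-12). Dcc, the receptor that mediates attraction to netrin-1, fell by 2.34 ± 0.27 to 1.23 CPM in vehicle tumor, against 6.27 CPM in vehicle naive brain. Unc5b, a receptor that mediates repulsion and is also found on endothelial cells, had 63.3 and 69.2 CPM in vehicle tumor and 21 and 20.3 CPM in vehicle naive brain (1.68 ± 0.09, adjusted p = 2.57e-10). Unc5a, by level the main receptor of the family in brain at 79.3% of its CPM per kb in vehicle naive brain, differed little, with 109 and 111 CPM in MRX-2843 tumor, 89.3 and 90.4 CPM in vehicle tumor, 104 and 101 CPM in MRX-2843 naive brain, and 116 and 117 CPM in vehicle naive brain (-0.37 ± 0.06, adjusted p = 4.06e-05). That call was lost with library totals as the only scaling (-0.12, adjusted p = 0.0865). An exon of Unc5a overlaps one of Hk3 on the other strand.

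All 3 Slits were lower in vehicle tumor, while their receptors split. Slit2 (chr5:47983138-48307733, plus strand), a secreted repellent, had 27.4 and 25.4 CPM in MRX-2843 tumor, 3.42 and 3.65 CPM in vehicle tumor, 20.9 and 23.1 CPM in MRX-2843 naive brain, and 27.0 and 25.9 CPM in vehicle naive brain (-2.90 ± 0.13, adjusted p = 2.3e-11). Slit1, the Slit with the highest level per length in every group, had 55.8 and 55.1 CPM in MRX-2843 tumor, 34.4 and 32.7 CPM in vehicle tumor, 40.4 and 41.9 CPM in MRX-2843 naive brain, and 43.8 and 53.1 CPM in vehicle naive brain (-0.53 ± 0.09, adjusted p = 0.000143), and Slit3 fell by 1.07 ± 0.18. Robo1 and the endothelial Robo4 were higher in vehicle tumor, and Robo2 and Robo3 were lower. Robo1 had 15.5 and 14.8 CPM in MRX-2843 tumor, 39.6 and 44.8 CPM in vehicle tumor, 30.5 and 33.3 CPM in MRX-2843 naive brain, and 19.6 and 14.8 CPM in vehicle naive brain (1.30 ± 0.13, adjusted p = 4.23e-07). Robo2 had 54.3 and 55.3 CPM in MRX-2843 tumor, 22 and 21.2 CPM in vehicle tumor, 35 and 31.6 CPM in MRX-2843 naive brain, and 58.5 and 59.9 CPM in vehicle naive brain (-1.46 ± 0.08, adjusted p = 5.64e-10). Robo3 (chr9:37415669-37433246, minus strand), which controls midline crossing of commissural axons and in mammals binds Slits weakly, had 53.4 and 59.0 CPM in MRX-2843 tumor, 2.02 and 1.18 CPM in vehicle tumor, 10.6 and 8.31 CPM in MRX-2843 naive brain, and 58.2 and 52.2 CPM in vehicle naive brain (-5.11 ± 0.19, adjusted p = 4.39e-12). Its libraries were high in MRX-2843 tumor and vehicle naive brain, which overlapped, intermediate in MRX-2843 naive brain and low in vehicle tumor.

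**Figure D3:**
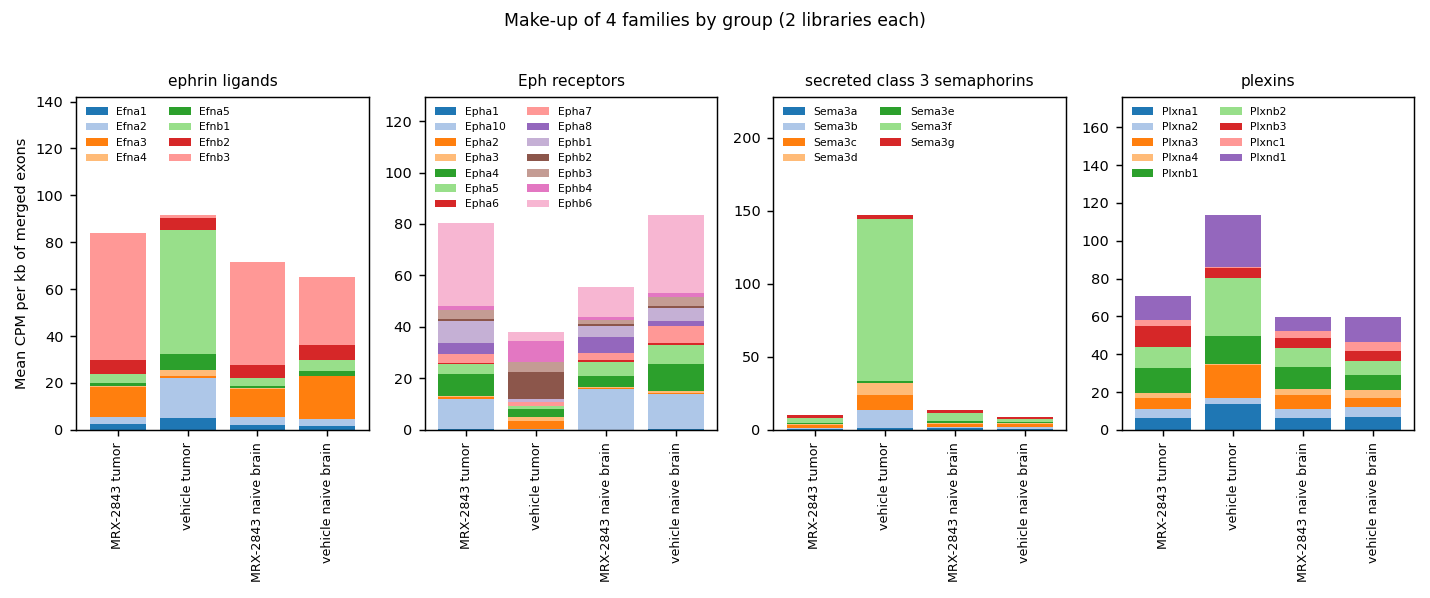
Stacked mean CPM per kb of merged exons of 4 families in each group (2 libraries each; each colour is a gene). The class 3 semaphorin bar is tall in vehicle tumor through Sema3f, the ephrin bars run from 65.0 to 91.5 CPM per kb with Efnb1 the widest segment in vehicle tumor and Efnb3 in vehicle naive brain, and the Eph receptor bar is lowest in vehicle tumor.

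Co-receptors and cytoplasmic effectors of the same pathways, 75 genes outside the symbol rule, also changed widely, where 60.1% of all genes were called: 30 were higher in vehicle tumor, 42 were lower and 3 were not called, with a median log2 fold change of -0.60. By the rule for named genes the rises were Rras (3.49 ± 0.10), a small GTPase inactivated by plexins, Vasp (3.35 ± 0.13), an actin-binding protein, Vav3 (2.47 ± 0.18) and Plxdc2 (2.35 ± 0.11), a plexin domain protein. The falls were Chn1 (-5.24 ± 0.07), which acts below EphA4, Islr2 (-5.17 ± 0.15), Crmp1 (-4.96 ± 0.07), of the collapsin response mediator family, and Ngef (-4.57 ± 0.07), also called ephexin. Chn1 was at 15.3 and 13.8 CPM in vehicle tumor, against 563 and 533 CPM in vehicle naive brain. Each of these 8 had an adjusted p of 9.07e-09 or lower.

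With a library left out, 4 of the 63 calls were lost, all of genes with changes of at most 0.71. The call of Sema3g was lost without vehicle naive brain 1 (0.52, adjusted p = 0.0686), vehicle naive brain 2 (0.52, adjusted p = 0.0699) or vehicle tumor 1 (0.36, adjusted p = 0.195), and that of Epha3 without vehicle naive brain 1 (0.57, adjusted p = 0.162) or vehicle tumor 2 (0.51, adjusted p = 0.172). The call of Efnb2 was lost without vehicle naive brain 2 (-0.25, adjusted p = 0.133) or vehicle tumor 2 (-0.29, adjusted p = 0.0595), and that of Sema7a without vehicle naive brain 2 (0.22, adjusted p = 0.0763). Library totals as the only scaling gave 37 higher and 27 lower, with the median of all genes moved by 0.25.

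The second comparison sets the libraries labelled MRX-2843 tumor, which stood close to brain, against MRX-2843 naive brain. Of the 69 genes, 18 were higher in MRX-2843 tumor, 13 were lower and 38 were not called. The 31 called are 44.9% of the set, where 24.4% of all genes tested were called, 12.4% higher and 11.9% lower, and 32 of 68 (47.1%) against 35.1% with the stricter filter on low counts. The median absolute log2 fold change was 0.33, against 0.38 over all genes, and 10 genes were called with a change of at least 1, where 5.60% of all genes were. Single libraries did not overlap for 46 of the 69 genes, where 57.7% of all genes did not overlap. The comparison shares no library with that of the vehicle tissues, where 63 of the 69 genes (91.3%) had been called. Of the 31 genes called here 27 were among those 63, which is 87.1% of the 31 and 42.9% of the 63, and over all genes 83.9% of the calls here were also called there. Of the 27, 12 (44.4%) moved in the same direction, where 55.3% of all genes called in both did.

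**Figure D4:**
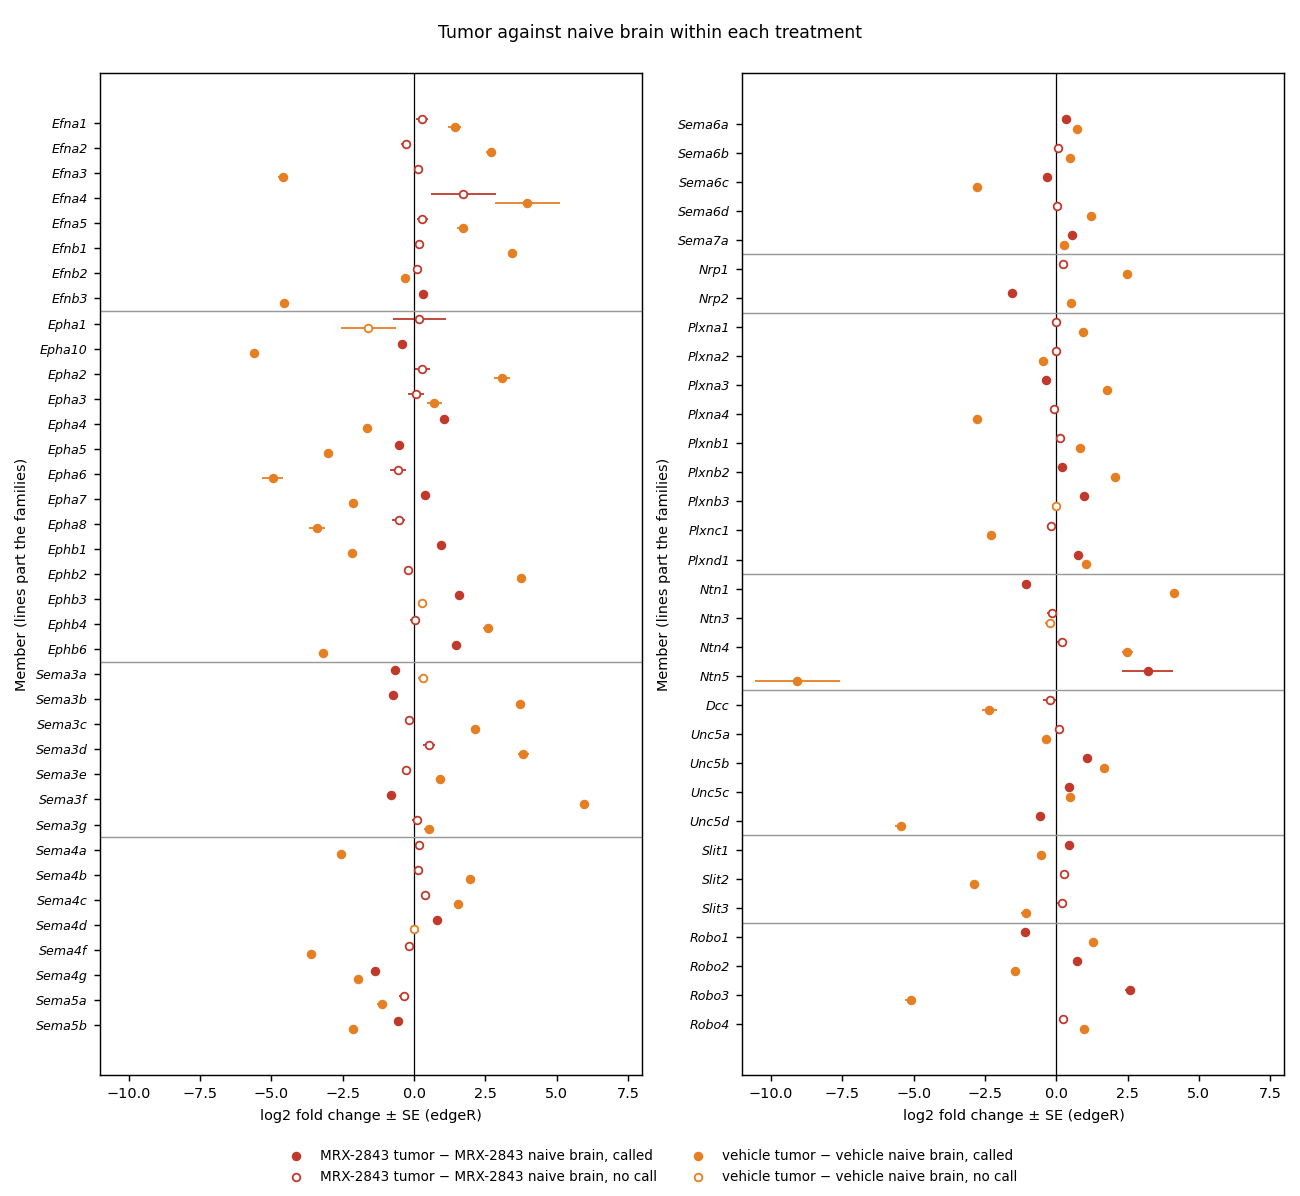
Log2 fold change ± SE of tumor over naive brain for each of the 69 genes, within MRX-2843 (red) and within vehicle (orange), with filled points for genes called at adjusted p under 0.05. Apart from Ntn5, vehicle values spread from Epha10 at -5.62 to Sema3f at 5.96 and MRX-2843 values from Nrp2 at -1.56 to Robo3 at 2.58. The value of Ntn5, which had no counts in vehicle tumor, depends on the prior count of the fit.

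Members of every receptor family differed between the MRX-2843 tissues. Robo3 was 2.58 ± 0.16 higher in MRX-2843 tumor on the log2 scale (adjusted p = 5.06e-08), at 53.4 and 59.0 CPM, against 10.6 and 8.31 CPM in MRX-2843 naive brain. Ephb3, an EphB receptor with 26.2 and 23.7 CPM in MRX-2843 tumor, 25.8 and 29.6 CPM in vehicle tumor, 8.67 and 7.95 CPM in MRX-2843 naive brain, and 22 and 23.9 CPM in vehicle naive brain, was 1.59 ± 0.12 higher (adjusted p = 4.08e-07). The MRX-2843 naive brain libraries were the low ones among its 8. Ephb6 was 1.49 ± 0.07 higher (adjusted p = 2.86e-09), and Epha4 (1.04 ± 0.12), Ephb1 (0.93 ± 0.08) and Epha7 (0.38 ± 0.09) were higher as well, while Epha5 (-0.53 ± 0.09) and Epha10 (-0.41 ± 0.08) were lower. Unc5b, with 38.1 and 40.9 CPM in MRX-2843 tumor and 18.9 and 18.5 CPM in MRX-2843 naive brain, was 1.08 ± 0.09 higher (adjusted p = 6.97e-07). Among plexins, Plxnb3 (0.96 ± 0.10), Plxnd1 (0.75 ± 0.07) and Plxnb2 (0.20 ± 0.07) were higher and Plxna3 (-0.36 ± 0.08) was lower.

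Nrp2 was 1.56 ± 0.09 lower in MRX-2843 tumor (adjusted p = 2.52e-08), with 16.0 and 16.1 CPM, against 46.7 and 48.3 CPM in MRX-2843 naive brain, where it was the highest of the 4 groups. Its ligand Sema3f was lower too (-0.81 ± 0.10, adjusted p = 3.61e-05), as were Sema3a (-0.66 ± 0.15), Sema3b (-0.75 ± 0.15), Ntn1 (-1.06 ± 0.08) and Robo1 (-1.08 ± 0.13). Sema4g had 39.1 and 42.4 CPM in MRX-2843 tumor, 10.02 and 9.12 CPM in vehicle tumor, 109 and 99.8 CPM in MRX-2843 naive brain, and 34.7 and 39.4 CPM in vehicle naive brain. Its MRX-2843 naive brain libraries were above all others, and it was 1.36 ± 0.09 lower in MRX-2843 tumor (adjusted p = 7.96e-08). Sema4d had 94.0 and 86.8 CPM in MRX-2843 tumor and 53.1 and 50.8 CPM in MRX-2843 naive brain, and was 0.80 ± 0.07 higher (adjusted p = 1.24e-06). The other calls were higher for Efnb3, Sema6a, Sema7a, Unc5c, Slit1, Robo2 and Ntn5 and lower for Sema5b, Sema6c and Unc5d. Ntn5 had 224 counts over the MRX-2843 tumor libraries and 25 over the MRX-2843 naive brain libraries.

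Cell type markers moved with this comparison too. All 7 oligodendrocyte markers were higher in MRX-2843 tumor, with a sum of 14048 to 14522 CPM, against 7513 to 7584 CPM in MRX-2843 naive brain, and all 6 dividing cell markers were higher, at 55.6 to 64.0 CPM, against 32.2 to 33.3 CPM. Microglia markers (5 of 7 higher, 316 to 321 CPM in MRX-2843 tumor and 245.5 to 248.9 CPM in MRX-2843 naive brain) also moved. So did oligodendrocyte precursor markers (4 of 6 higher, 386 to 411 CPM and 270.2 to 281 CPM) and astrocyte markers (4 of 7 higher and 1 lower, 3492 to 3561 CPM and 2742 to 2766 CPM). Of the 10 neuron markers 2 were higher and 5 lower, while their sum was higher in MRX-2843 tumor. The sum was 5701 to 5732 CPM there, against 4627 to 4676 CPM in MRX-2843 naive brain. Neuroblast (4 of 6 higher, 1 lower), mural cell and fibroblast (2 of 7 higher, 4 lower) and striatal neuron markers (2 of 6 lower) held calls as well. No endothelial marker was called higher and 1 was called lower, with sums of 161 to 172 CPM in MRX-2843 tumor and 166 CPM in MRX-2843 naive brain. The part of these cells in the calls above was not tested. With only the libraries of these groups in the fit, the calls of Sema3b and Plxnb2 (0.20, adjusted p = 0.064) were lost. With a library left out, 9 calls were lost at adjusted p values of 0.0548 to 0.273. That of Sema6c was lost without any library outside vehicle tumor, with values between -0.27 (adjusted p = 0.249) without MRX-2843 tumor 1 and -0.39 (adjusted p = 0.0703) without MRX-2843 tumor 2. Without MRX-2843 naive brain 1, the calls of Unc5c (0.30, adjusted p = 0.197), Unc5d (-0.50, adjusted p = 0.0626), Plxnb2 (0.23, adjusted p = 0.0554), Sema6a (0.27, adjusted p = 0.152) and Plxna3 (-0.24, adjusted p = 0.059) were lost. Without MRX-2843 naive brain 2, those of Epha7 (0.32, adjusted p = 0.0548), Ntn5 (2.30, adjusted p = 0.0788), Efnb3 (0.27, adjusted p = 0.099) and Plxnb2 (0.17, adjusted p = 0.178) were lost. The call of Unc5c was lost without MRX-2843 tumor 1 (0.32, adjusted p = 0.197). Those of Unc5d (-0.41, adjusted p = 0.117), Efnb3 (0.26, adjusted p = 0.113), Plxnb2 (0.14, adjusted p = 0.273) and Sema6a (0.27, adjusted p = 0.157) were lost without MRX-2843 tumor 2.

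MRX-2843 tumor against vehicle tumor asks what the drug did to the tumor, with the drug tied to the number in the column names, to sex and to the closeness of the MRX-2843 tumor libraries to brain described above. It uses the vehicle tumor libraries of the first comparison and the MRX-2843 tumor libraries of the second. In it, 30 of the 69 genes were higher in MRX-2843 tumor, 34 were lower and 5 were not called, 92.8% of the set, where 60.4% of all genes tested were called, 30.6% higher and 29.8% lower. A change of at least 1 was called for 49 genes (39.9% of all genes), and single libraries did not overlap for 68 (80.9% of all genes). The class 3 semaphorins Sema3f (-5.06 ± 0.11), Sema3b (-4.90 ± 0.14) and Sema3d (-3.91 ± 0.20), the ligands Ntn1 (-3.82 ± 0.09) and Efnb1 (-3.74 ± 0.13), and the receptor Ephb2 (-4.0 ± 0.13) were the lowest. The highest, besides Ntn5 with 224 counts in MRX-2843 tumor and none in vehicle tumor (at least 112-fold higher), were Efnb3 (5.46 ± 0.12), Epha10 (5.39 ± 0.10), Robo3 (5.13 ± 0.19) and Unc5d (4.98 ± 0.20). Neuron markers (9 of 10 higher, 1 lower) summed to 5701 to 5732 CPM in MRX-2843 tumor and 559 to 565 CPM in vehicle tumor. Mural cell and fibroblast markers (6 of 7 lower) summed to 157 to 173 CPM and 8610 to 8711 CPM. All 7 oligodendrocyte markers were higher (14048 to 14522 CPM in MRX-2843 tumor and 486 to 500.4 CPM in vehicle tumor), as were all 6 striatal neuron markers (1298 to 1384 CPM and 15.9 to 17.7 CPM). Markers of microglia (7 of 7 lower, 316 to 321 CPM and 1836 to 1879 CPM), endothelial cells (6 of 7 lower, 161 to 172 CPM and 616 to 620.3 CPM) and dividing cells (6 of 6 lower, 55.6 to 64.0 CPM and 340 to 341 CPM) were lower. Oligodendrocyte precursor (5 of 6 lower, 1 higher), macrophage and monocyte (6 of 6 lower), T and NK cell (5 of 5 lower) and erythrocyte markers (5 of 5 lower) were mostly lower too. Astrocyte (5 of 7 higher, 2 lower), neuroblast (3 of 6 higher, 1 lower), ependymal (5 of 6 higher, 1 lower) and choroid plexus markers (2 of 5 higher, 1 lower) were mixed. The part of all these cell types in these differences was not tested.

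Some genes that did not separate the vehicle tissues did separate the tumors. Plxnb3, an X-linked plexin of oligodendrocytes, whose markers are given above, averaged 70.1 CPM in MRX-2843 tumor and 34.0 CPM in vehicle tumor (1.04 ± 0.10, adjusted p = 2.7e-07), and Sema4d was 0.38 ± 0.07 higher, a call that was lost with library totals as the only scaling (0.16, adjusted p = 0.0594), as were those of Plxna2 and Unc5a. Sema3a was lower (-0.43 ± 0.15, adjusted p = 0.0225). Not called were Efnb2, Epha1, Ephb3, Sema3g and Ntn3. Without MRX-2843 tumor 1, calls of Efna4 (-1.96, adjusted p = 0.0897), Sema3e (-0.37, adjusted p = 0.134) and Plxnb1 (-0.19, adjusted p = 0.0556) were lost. That of Sema3a was lost without MRX-2843 tumor 2 (-0.35, adjusted p = 0.126) or vehicle tumor 2 (-0.36, adjusted p = 0.126), and those of Sema3e (-0.38, adjusted p = 0.125) and Plxnb1 (-0.15, adjusted p = 0.11) without vehicle tumor 2.

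Between the naive brains, MRX-2843 naive brain against vehicle naive brain, 16 of the 69 genes were higher, 21 were lower and 32 were not called. The 37 called are 53.6%, where 21.5% of all genes tested were called, 9.78% higher and 11.7% lower, and 37 of 68 (54.4%) against 31.0% with the stricter filter. A change of at least 1 was called for 13 genes (5.70% of all genes), and single libraries did not overlap for 49 (57.0% of all genes). Without both MRX-2843 tumor libraries in the fit, 36 of the 37 calls were kept and that of Plxnc1 was lost. This comparison uses the vehicle naive brain libraries of the first comparison and the MRX-2843 naive brain libraries of the second. Its calls are therefore not separate from theirs, and a departure of the MRX-2843 naive brain libraries enters the second comparison with the sign turned. The largest called change was that of Robo3, 2.56 ± 0.16 lower in MRX-2843 naive brain (adjusted p = 3.55e-08). In the second comparison Robo3 was 2.58 ± 0.16 higher in MRX-2843 tumor than in these same libraries. Of the Eph receptors, 6 were lower and 1 was higher: Ephb3 (-1.47 ± 0.12), Ephb6 (-1.40 ± 0.07), Epha4 (-1.28 ± 0.12), Epha7 (-1.23 ± 0.09), Epha3 (-1.16 ± 0.28) and Epha5 (-0.45 ± 0.09) were lower, and Epha8, at 27.6 and 29.6 CPM in MRX-2843 naive brain, against 10.03 and 10.1 CPM in vehicle naive brain, was higher (1.5 ± 0.24, adjusted p = 0.00026). The ligands Sema3f (1.71 ± 0.11), Ntn1 (1.37 ± 0.09) and the membrane-bound Sema4g (1.49 ± 0.09) and Sema5b (1.36 ± 0.11) were higher. So were Dcc (1.06 ± 0.25), Robo1 (0.89 ± 0.13), Nrp2 (0.70 ± 0.09) and Efnb3 (0.60 ± 0.09). Called lower, among others, were Efna5 (-1.02 ± 0.20), Robo2 (-0.83 ± 0.08), Plxnd1 (-0.81 ± 0.07) and Sema7a (-0.71 ± 0.08).

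Markers of striatal neurons, the projection neurons of the striatum, moved with this comparison: all 6 were higher in MRX-2843 naive brain, at 1303 to 1357 CPM, against 281 to 283 CPM in vehicle naive brain. The sum was 1298 to 1384 CPM in MRX-2843 tumor and 15.9 to 17.7 CPM in vehicle tumor. All 5 erythrocyte markers were lower, at 73.3 to 77.5 CPM in MRX-2843 naive brain and 939 to 1001 CPM in vehicle naive brain, and 3 of 6 dividing cell markers were lower, at 32.2 to 33.3 CPM and 40.0 to 41.0 CPM. The 10 neuron markers, 3 of them higher and 6 lower, summed to 4627 to 4676 CPM in MRX-2843 naive brain and 8709 to 8901 CPM in vehicle naive brain. The 5 choroid plexus markers, 1 of them higher, summed to 21.9 to 24.7 CPM and 4.91 to 5.76 CPM in the same groups. The part of these cells in the calls was not tested. With only the libraries of these groups in the fit, the calls of Sema3b and Sema3d were lost. With a library left out, 12 of the 37 calls were lost, all of genes with changes of at most 1.06. Without MRX-2843 naive brain 1 these were Efnb1 (-0.30), Ntn4 (-0.50), Plxnc1 (-0.30), Sema3a (0.46), Sema3b (-0.46), Sema3d (-0.35), Unc5a (-0.20) and Unc5c (-0.30), at adjusted p values of 0.07 to 0.246. Without MRX-2843 naive brain 2 they were Dcc (0.85), Plxna4 (-0.23), Sema3b (-0.40), Sema3e (0.56), Sema6d (0.27) and Unc5a (-0.16), at 0.0548 to 0.197. Without vehicle naive brain 1 they were Efnb1 (-0.44), Plxna4 (-0.33), Plxnc1 (-0.35), Sema3b (-0.49), Sema3d (-0.47), Sema6d (0.25), Unc5a (-0.19) and Unc5c (-0.48), at 0.0509 to 0.227. Without vehicle naive brain 2 they were Ntn4 (-0.50), Plxna4 (-0.26), Plxnc1 (-0.39), Sema3a (0.45), Sema3b (-0.37), Sema3e (0.60), Unc5a (-0.17) and Unc5c (-0.38), at 0.0655 to 0.195. Sema3b (-0.43) was also lost without vehicle tumor 1 (adjusted p = 0.0723) or 2 (adjusted p = 0.0773). With the replicate number as a block the call of Unc5a was lost too (-0.18, adjusted p = 0.0582).

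The interaction, MRX-2843 tumor minus MRX-2843 naive brain less the same difference under vehicle, tests whether tumor and naive brain differed by unequal amounts under drug and vehicle. It passed for 63 of the 69 genes, 33 with a positive and 30 with a negative value, where 51.6% of all genes tested were called, 26.3% positive and 25.3% negative. Robo3 had the largest positive value among genes with counts in every library (7.69 ± 0.25, adjusted p = 1.52e-12) and Sema3f the most negative (-6.78 ± 0.15, adjusted p = 2.19e-14). Epha10 (5.21 ± 0.13), Unc5d (4.89 ± 0.25) and Efnb3 (4.86 ± 0.15) were also positive, and Ntn1 (-5.20 ± 0.12) and Sema3b (-4.46 ± 0.19) negative. Not called were Efna4, Epha1, Epha3, Sema3g, Ntn3 and Unc5c, the last with nearly the same difference in both treatments, 0.44 ± 0.13 under MRX-2843 and 0.49 ± 0.13 under vehicle (interaction -0.05 ± 0.18). With a library left out, 6 calls were lost. These were Plxnd1 (-0.21, adjusted p = 0.0933) and Sema6b (-0.30, adjusted p = 0.0507) without MRX-2843 naive brain 1, and Efnb2 (0.29, adjusted p = 0.14), Sema7a (0.24, adjusted p = 0.117) and Sema6a (-0.32, adjusted p = 0.129) without MRX-2843 naive brain 2. Without MRX-2843 tumor 1 they were Efnb2 (0.30, adjusted p = 0.139), Sema5a (0.42, adjusted p = 0.0942), Sema6b (-0.27, adjusted p = 0.0629) and Sema6a (-0.32, adjusted p = 0.126), and without MRX-2843 tumor 2 Plxnd1 (-0.24, adjusted p = 0.0698) and Sema7a (0.16, adjusted p = 0.235). Without a vehicle library, calls of Sema7a and Sema6a were lost with vehicle naive brain 1 (adjusted p of 0.124 and 0.102) or vehicle tumor 2 (0.0684 and 0.103) left out, and those of Plxnd1, Efnb2 and Sema6a with vehicle naive brain 2 left out (0.0771, 0.101 and 0.0578).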

How the data were processed

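RNA-seq of 8 mouse libraries was deposited as 1 table of raw read counts per gene, whole numbers for 55414 genes. The submitters' processing notes name the aligner STAR 2.7.7a, featureCounts, Subread and SAMtools, and list mm10 and hg38 as builds, without roles. Annotation, strand setting and trimming are not given in the sources used here. A quasi-likelihood model of the 4 group means was fitted across the 8 libraries in edgeR 4.0.16 (R 4.3.3) after TMM scaling and filterByExpr (minimum count 10), leaving 4 residual degrees of freedom, and p-values were Benjamini-Hochberg adjusted over 24356 genes. The common biological coefficient of variation was 21.0%. Each SE is the size of the log2 fold change divided by the square root of its F statistic. With 2 libraries a group, precision is limited by their number; floors cover counting error only. Library totals ran from 51150569 to 112938462 counts.

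Members, 75 pathway effectors and the cell type marker lists were chosen with earlier results of these data known. Library values are given for each family's largest rise and largest fall in vehicle tumor (adjusted p under 0.05, mean log2 CPM of at least 2, no overlap), its highest member, and the 8 smallest adjusted p in MRX-2843 tumor against MRX-2843 naive brain. Coordinates, exon lengths and overlaps are from GENCODE M21 (GRCm38); 94% of identifiers matched it without version numbers and 35 with them, so the counts rest on another release. An exon of 15 members overlaps a gene on the other strand and of 4 a gene on the same strand. Those with an overlap on the other strand include Efna3, Efna4, Epha1, Epha6, Epha10, Ephb1, Ephb4 and Ntn3. The others are Ntn5, Plxna1, Plxna4, Plxnb1, Sema4c, Unc5a and Unc5c. The part of these overlaps in the counts was not tested. Alternatives were DESeq2 size factors, library totals, the DESeq2 1.42.0 Wald test, no filter, a CPM filter, a replicate block, only the groups compared, no MRX-2843 tumor libraries, no mitochondrial genes and leaving out each library. Python 3.11.15 with pandas 2.3.3, NumPy 2.4.6 and matplotlib 3.10.9 made tables and plots.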

Additional observations from a re-analysis of the deposited data

Results flagged for a closer look

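In 27 guidance genes whose library values are given above, the tumor minus naive brain difference under MRX-2843 differed from that under vehicle by the interaction test of edgeR (adjusted p under 0.05). Most of these genes were chosen by their change between the vehicle tissues or between the MRX-2843 tissues, which make up the interaction, so the number that passed is a description. A positive value means a higher signed difference under MRX-2843, not always a larger one. Epha10 differed by -0.41 under MRX-2843 and -5.62 under vehicle, and Unc5d by -0.57 and -5.46. Ephb3, by contrast, differed by 1.59 and 0.27, and Sema4d by 0.80 and 0.01. Positive values were 7.69 for Robo3, 5.21 for Epha10, 4.89 for Unc5d, 4.86 for Efnb3, 4.73 for Efna3, 4.66 for Ephb6, 3.44 for Sema4f, 3.16 for Slit2, 2.69 for Plxna4 and 2.18 for Robo2. Smaller positive values were 1.32 for Ephb3, 0.96 for Slit1, 0.79 for Sema4d, 0.60 for Sema4g and 0.47 for Unc5a. Negative values were -6.78 for Sema3f, -5.20 for Ntn1, -3.96 for Ephb2, -3.26 for Efnb1, -2.37 for Robo1, -2.24 for Nrp1, -2.07 for Nrp2, -1.88 for Plxnb2, -1.82 for Sema4b, -0.71 for Plxnb1, -0.60 for Unc5b and -0.39 for Sema6b. All are on the log2 scale. The interaction rests on both tissues of both treatments, so the similarity of the MRX-2843 tumor libraries to brain, and the Xist difference between treatments, go with each of these values; their part was not tested.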

How the results depend on the processing

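Every count of higher or lower members and effectors stayed within 1.5 times under all 324 recalculations, and no called member turned direction under any setting. Members higher in vehicle tumor than in vehicle naive brain numbered 32 to 35 with a library left out, and members lower 28 to 29. Library totals moved the median of all genes by 0.25 in vehicle tumor against vehicle naive brain, by -0.22 in MRX-2843 tumor against vehicle tumor and by -0.22 in the interaction. Among named genes, 26 values fell short of the threshold and 12 passed it under some setting. The sign turned only for values that were not called. DESeq2 size factors and its Wald test gave -0.00440 and -0.00173 for Sema4b between the naive brains. With a library left out, the values ran from -0.031 to 0.058 for Sema4d between the vehicle tissues. Between the MRX-2843 tissues they ran from -0.00598 to 0.44 for Efnb1, -0.39 to 0.049 for Ephb2, -0.035 to 0.29 for Sema4b, -0.31 to 0.00354 for Sema4f and -0.052 to 0.20 for Sema6b. Between the naive brains they ran from -0.30 to 0.14 for Ephb2, -0.22 to 0.036 for Nrp1 and -0.15 to 0.18 for Sema4b. The cause was not tested. Deviations of replicate 1 from replicate 2 were nearly unrelated between groups (r of -0.06 to 0.02). If the duplicates are technical repeats, this cannot tell whether groups share animals. The replicate block kept all 63 calls of vehicle tumor against vehicle naive brain, lost Unc5a between the naive brains (20 lower in place of 21) and added Efna4 to the interaction. Depth limits Efna4, Epha1 and Ntn5, the members with the fewest counts.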

Other observations

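Of 5 pairs of members that follow each other directly along a chromosome, with a gap of at most 200000 bases, 4 had a member higher and a member lower in vehicle tumor than in vehicle naive brain, as a description of these pairs. On chromosome 3, Efna3 (-4.61) lies between Efna1 (1.43, gap 32756 bases) and Efna4 (3.98, gap 10424 bases), which were both higher. On chromosome 9, Robo3 (-5.11) lies 553 bases from Robo4 (0.96), and the pair that moved together was Sema3b (3.72) and Sema3f (5.96), with a gap of 72270 bases. The remaining pair was Ephb2 and Epha8 on chromosome 4.

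Added up over the 69 genes, the level was 2632 and 2666 CPM in MRX-2843 tumor, 3617 and 3704 CPM in vehicle tumor, 2442 and 2358 CPM in MRX-2843 naive brain, and 2524 and 2541 CPM in vehicle naive brain. The families differed in which group was highest per length: netrins reached 5.93 CPM per kb in MRX-2843 tumor, 36.0 in vehicle tumor, 7.11 in MRX-2843 naive brain and 5.51 in vehicle naive brain, while Robo receptors reached 14.9, 8.05, 7.40 and 14.6 CPM per kb in the same groups. Robo3 made up 55.3% of the Robo sum in MRX-2843 tumor, 2.91% in vehicle tumor, 18.7% in MRX-2843 naive brain and 55.1% in vehicle naive brain. Of the 75 effectors, 26 were higher and 17 lower in MRX-2843 tumor than in MRX-2843 naive brain (34.7% and 22.7%, against 12.4% and 11.9% of all genes). In MRX-2843 naive brain against vehicle naive brain 9 were higher and 26 lower (12% and 34.7%, against 9.78% and 11.7% of all genes), so that the share higher was near that of all genes.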
